A study of Mus musculus with 62 samples.

Results

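The 10 genes described here are the receptors for stress steroids and a set of their known targets in the brain: Nr3c1, Nr3c2, Hsd11b1, Fkbp5, Tsc22d3, Sgk1, Ddit4, Zbtb16, Mt1 and Mt2. They were chosen by name, with earlier results of these data known, and all 10 were present among the 11121 genes of the count table. Expression was measured by BRB-seq, a method that reads the 3′ end of polyadenylated RNA from many barcoded samples in a single pool, in 62 bulk tissue libraries from wild-type C57BL/6j mice that were 15 weeks old. There were 15 prefrontal cortex (PFC) libraries of unstressed control (CTR) mice and 15 of stressed mice (mCRS, multimodal chronic restraint stress), and 16 nucleus accumbens (NAc) libraries of each treatment. mCRS is daily restraint in a tube under changing conditions, and the mice of both treatments went through behavioral tests before the tissue was taken. Per the study, the tissue was taken several days after the last stress session, not during or right after it, and all mice were male.

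Corticosterone, the main glucocorticoid of mice, binds the mineralocorticoid receptor with high affinity and the glucocorticoid receptor with lower affinity, and both receptors then act in the nucleus as transcription factors on glucocorticoid response elements (GREs). Fkbp5 is induced by the glucocorticoid receptor and lowers its affinity for the hormone, a short negative feedback loop, while Tsc22d3, Sgk1, Ddit4, Zbtb16 and the metallothioneins are induced in many cell types after the hormone rises. These transcripts are widely used as readouts of glucocorticoid action in the brain, and several of them also respond to other signals, such as growth factors, hypoxia, neuronal activity or metal ions.

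The 250 bases before the RefSeq start site were read for the 8 genes with a window in the RefSeq table of GRCm38.p6, on both strands, for a full GRE (GNACA and TGTNC with any 3 bases between them), for the metal response element cores TGCGCNC and TGCACNC, for the hypoxia response core ACGTG, for the cAMP response element TGACGTCA and for TGATGNAAT, a composite site of Atf4. Only Mt1 and the fifth of the 6 Sgk1 windows held the GRE palindrome, which 0.387% of the 32851 windows of all genes held. The Ddit4 window held 1 hypoxia core, present in 16.6% of all windows. Hypoxia cores were also in the windows of Mt1 (1), Sgk1 (2 in the fifth) and Fkbp5 (2), and those in the printed stretches are not in capitals. The 2 cores of Sgk1 lie in 1 stretch, CACGTG, which reads the same on both strands, and so do the 2 of Fkbp5. The Ddit4 window also held 1 metal core of the form TGCGCNC, present in 12.5%, which overlaps the hypoxia core. These 3 stretches are shown because they hold the only GRE palindromes among the members and the start of the gene with the largest difference between treatments. The GRE palindrome is in capitals for Mt1 (chr8:94178839-94179081, plus strand) and for Sgk1 (chr10:21993640-21993889, plus strand), and the hypoxia core is in capitals for Ddit4 (chr10:59951835-59952020, minus strand); the 7 bases of Mt1 and the 64 bases of Ddit4 nearest to the RefSeq start lie in exons of the GENCODE annotation and were left out.
Mt1: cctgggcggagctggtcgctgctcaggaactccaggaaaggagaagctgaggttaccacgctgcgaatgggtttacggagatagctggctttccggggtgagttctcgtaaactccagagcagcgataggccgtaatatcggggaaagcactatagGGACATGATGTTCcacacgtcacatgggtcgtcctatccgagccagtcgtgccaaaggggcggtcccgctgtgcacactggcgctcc
Sgk1: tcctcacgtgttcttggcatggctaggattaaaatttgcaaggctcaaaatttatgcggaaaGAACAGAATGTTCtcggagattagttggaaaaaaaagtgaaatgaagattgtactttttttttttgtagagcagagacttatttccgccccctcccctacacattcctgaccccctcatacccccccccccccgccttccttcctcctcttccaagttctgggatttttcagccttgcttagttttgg
Ddit4: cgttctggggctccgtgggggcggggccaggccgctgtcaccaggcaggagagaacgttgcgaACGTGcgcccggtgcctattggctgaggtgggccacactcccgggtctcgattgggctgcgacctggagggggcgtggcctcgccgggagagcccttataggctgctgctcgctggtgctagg
The Mt1 palindrome began 94 bases and the Sgk1 palindrome 188 bases before the RefSeq start. No window of a member held TGACGTCA (1.55% of all windows) or TGATGNAAT (0.816%). Metal cores were found in Mt2 (3), Mt1 (1), Nr3c2 (1) and Hsd11b1 (1) beside Ddit4, against 21.4% of all windows with at least 1 and 1.26% with at least 3. Cores outside the windows were not counted. A match of letters is a description of the window and does not show that a factor was bound there.

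Levels are given as CPM, counts scaled to a common library size after TMM, and differences as log2 fold changes from edgeR's quasi-likelihood test with Benjamini-Hochberg adjustment over all genes tested (FDR); a call is an FDR below 0.05. Library totals ran from 945286 to 4857359 counts, and the share of genes with any count was 82.3% ± 6.22 (SD, n = 15) in PFC mCRS against 87.1% ± 4.42 (SD, n = 15) in PFC CTR libraries. All 10 striatal neuron markers were called higher in the NAc, and 7 of 8 cortical excitatory neuron markers in CTR and 8 of 8 in mCRS mice were called lower there. Over all 11025 genes tested between the regions, 5.44% were called in CTR and 6.49% in mCRS mice. Only 4 of the 8 cortical markers were tested among the NAc libraries alone, and 9 of the 10 striatal markers among the PFC libraries alone. The others entered through the region where they were higher, so the marker counts are a description. Library 7 of NAc CTR went against its label, with a summed level of the 10 striatal markers of 523 CPM against 3580 to 8307 CPM in the other 15 NAc CTR libraries, and with 2676 CPM of the 4 hypothalamic markers in the table. Library 10 of NAc mCRS held 21733 CPM of the 2 choroid plexus markers in the table, against at most 107 CPM in the other 15. NAc results are therefore also given without these libraries wherever that changes a call or a direction.

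The members differed widely in how evenly they were measured. The coefficient of variation between libraries beyond counting error was 0.331 for Mt1, lower than for all but 1.48% of the genes tested, 0.529 for Nr3c1 and 0.531 for Mt2. It was 0.715 for Tsc22d3, 0.923 for Sgk1, 0.984 for Ddit4, 1.38 for Fkbp5, 1.43 for Nr3c2, 1.89 for Hsd11b1 and 2.09 for Zbtb16, against a median of 1.08 over all genes. Zbtb16 had no count in 27 of the 62 libraries, Hsd11b1 in 19, Nr3c2 in 10, Fkbp5 in 8, and Sgk1 and Ddit4 in 1 each. Nr3c1, Tsc22d3, Mt1 and Mt2 were counted in every library, and their intervals were the narrowest.

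**Figure D1:**
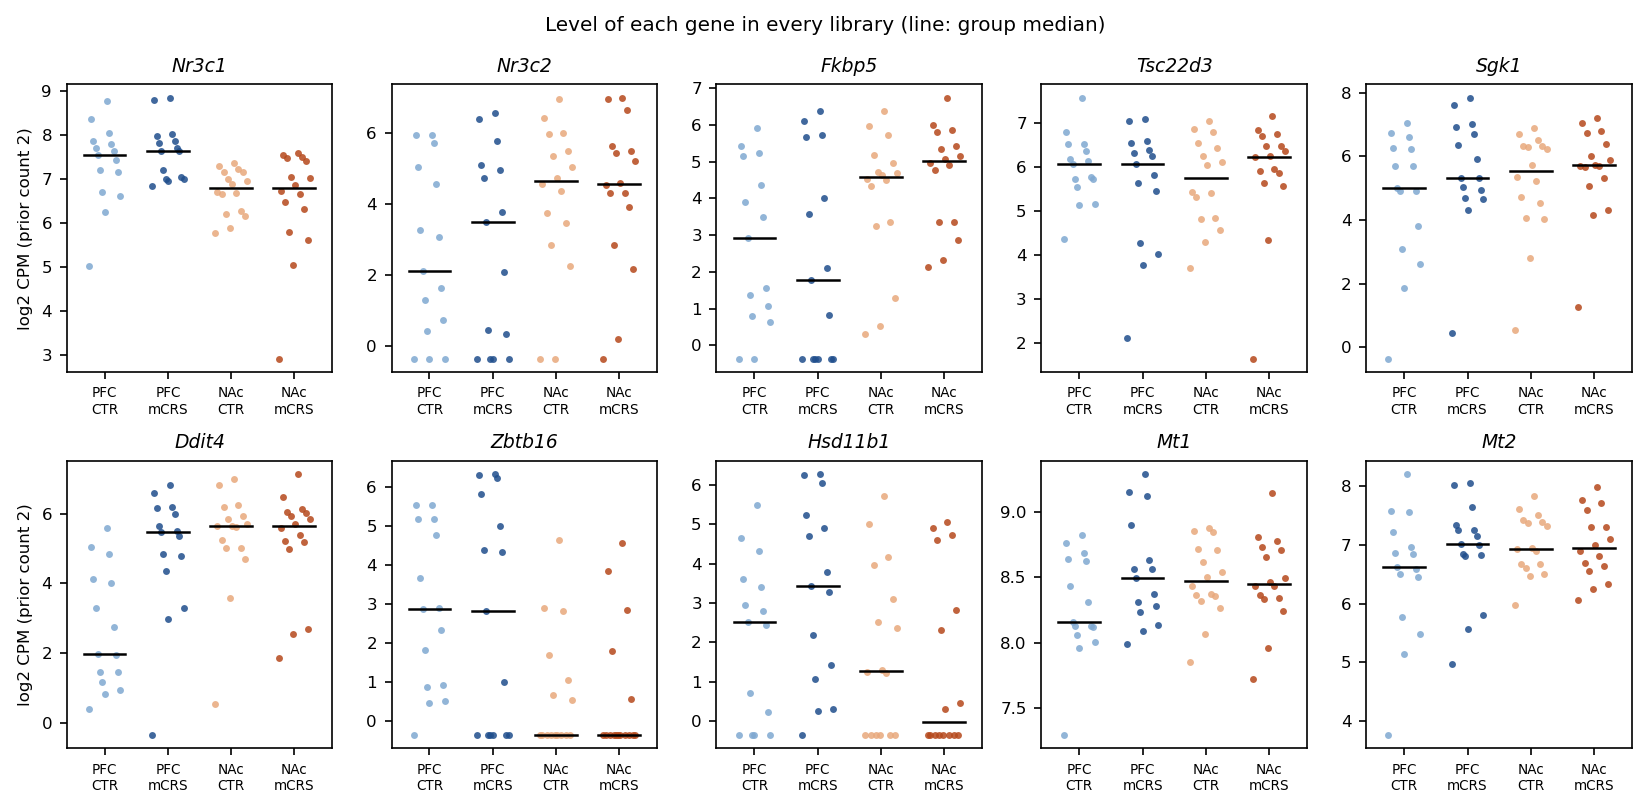
Log2 CPM (prior count 2, vertical axis) of the 10 genes in each of the 62 libraries, by group, with a line at the group median. Mt1 points lie close together in every group, Zbtb16 and Hsd11b1 points spread down to 0 counts, and Ddit4 is lowest in PFC CTR, with a median of 3.17 CPM against 44.1 to 49.5 CPM in the other groups.

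Whether mCRS changed these genes was tested in each region alone. None of the members passed the test in either region. In the PFC all 10 members were tested and 0 had an FDR below 0.05, as was the case for 0% of the 8916 genes tested. There, 9 of the 10 fold changes were above 0, with a median log2 fold change of 0.39 against -0.01 over all genes tested, and 1 member, Ddit4, had an unadjusted p below 0.05, a level reached by 3.52% of all genes. In the NAc 8 members passed the filter on low counts, Zbtb16 and Hsd11b1 did not, and 0 of the 8 had an FDR below 0.05 (0.00986% of 10141 genes) or an unadjusted p below 0.05 (2.04% of all genes). The median of the 8 log2 fold changes in the NAc was 0.12 against -0.01 over all genes, and 7 of the 8 were above 0. DESeq2's Wald test called 0 members in both regions, with 1 member of the PFC, Ddit4, and 0 of the NAc at an unadjusted p below 0.05, but it gave Ddit4 in the PFC no adjusted p, so that this gene could not be called there. In bulk tissue, fewer cells of a type and less RNA per cell cannot be told apart.

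**Figure D2:**
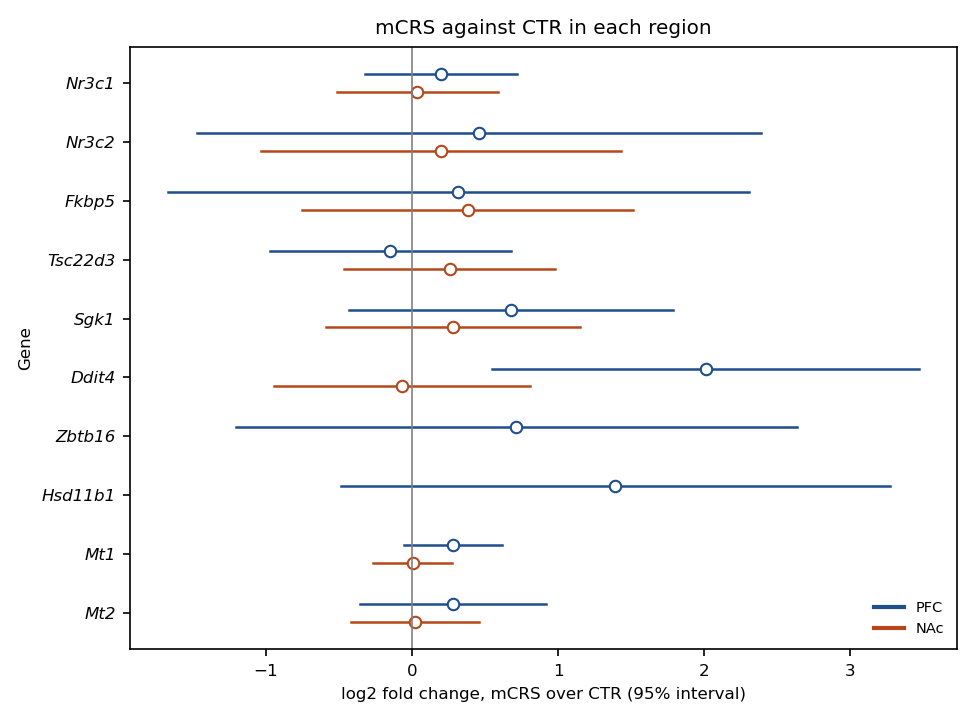
Log2 fold change of mCRS over CTR (horizontal axis, with 95% interval) for each gene in the PFC and in the NAc. Open circles mark genes that did not reach an FDR below 0.05, which holds for every point shown, and of all the intervals only that of Ddit4 in the PFC, from 0.55 to 3.47, leaves out 0. Zbtb16 and Hsd11b1 have no NAc point because they did not pass the filter there.

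Nr3c1 (ENSMUSG00000024431, chromosome 18 from 39410545 to 39519421) encodes the glucocorticoid receptor. In the PFC it was measured at 31.7 to 442 CPM in CTR libraries, with a median of 186, and at 114 to 464 CPM in mCRS libraries, with a median of 200. The groups overlapped, with 9 of 15 mCRS libraries above the CTR median, 2 above the highest CTR library, and 4 of 15 CTR libraries below the lowest mCRS library. The log2 fold change was 0.20 (SE 0.26, 95% interval -0.32 to 0.72, FDR 0.9997). In the NAc the range was 54.3 to 165 CPM in CTR libraries, with a median of 110, and 6.71 to 193 CPM in mCRS libraries, with a median of 111. The medians were nearly equal and the mCRS libraries spread further to both sides, with 5 of 16 above the highest and 3 below the lowest CTR library. mCRS over CTR gave a log2 fold change of 0.04 (SE 0.27, 95% interval -0.51 to 0.59, FDR 0.9999), and without NAc CTR library 7 and NAc mCRS library 10 it was 0.10.

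Nr3c2 (ENSMUSG00000031618, chromosome 8 from 76899442 to 77245012) encodes the mineralocorticoid receptor, which is largely occupied at resting hormone levels. In the PFC its level ran from 0 to 61.2 CPM in CTR libraries, with a median of 3.53, and from 0 to 94.1 CPM in mCRS libraries, with a median of 10.6. In the NAc it ran from 0 to 123 CPM in CTR libraries, with a median of 24.6, and from 0 to 128 CPM in mCRS libraries, with a median of 23.0. Each group held libraries at 0, between 1 and 4. The treatments overlapped in both regions, with 2 libraries of each mCRS group above the highest CTR library of their region. The estimate was a log2 fold change of 0.46 in the PFC (SE 0.96, 95% interval -1.47 to 2.39, FDR 0.9997) and 0.20 in the NAc (SE 0.62, 95% interval -1.04 to 1.43, FDR 0.9999), and changes within these wide intervals were not detectable. In the NAc the value turned to -0.04 without the libraries that stood apart. The span of Gm10649, a gene on the other strand that is not in the table, covers 615 exonic bases of Nr3c2.

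Hsd11b1 (ENSMUSG00000016194, chromosome 1 from 193221634 to 193264075) encodes the enzyme that regenerates active corticosterone from its inert keto form inside cells. PFC CTR libraries held 0 to 44.2 CPM, with a median of 4.97, and PFC mCRS libraries 0 to 76.8 CPM, with a median of 9.99. NAc CTR libraries held 0 to 51.6 CPM, with a median of 1.64, and NAc mCRS libraries 0 to 32.3 CPM, with a median of 0.234. The gene had no count in 4 PFC CTR libraries, 1 PFC mCRS library, 6 NAc CTR libraries and 8 NAc mCRS libraries, and all groups overlapped. In the PFC the log2 fold change was 1.39 (SE 0.94, 95% interval -0.49 to 3.27, FDR 0.9997). Its exons lie within the span of Lamb3, introns included, a gene on the other strand that is not in the table. The span of the antisense gene 4930570N18Rik, also not in the table, covers 739 of its exonic bases. The use of strand in the counting is not given in the sources used here. Reads from places where exons of both strands overlap can therefore not be told apart, and the overlap between exons was not measured.

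Fkbp5 (ENSMUSG00000024222, chromosome 17 from 28399094 to 28517527) encodes the co-chaperone of the receptor complex described above. The PFC range was 0 to 59.6 CPM in CTR libraries, with a median of 6.83, and 0 to 83.0 CPM in mCRS libraries, with a median of 2.64. The NAc range was 0.465 to 83.2 CPM in CTR libraries, with a median of 23.1, and 3.58 to 107 CPM in mCRS libraries, with a median of 31.6. PFC mCRS held both the highest PFC value and the most libraries without a count, 6 of 15 against 2 of 15 in CTR, and no NAc library was at 0. The log2 fold change of the means was 0.32 in the PFC (SE 0.99, 95% interval -1.67 to 2.30, FDR 0.9997), opposite in sign to the difference of the mean log2 CPM, -0.48, whose two-sided permutation test gave p = 0.601. In the NAc the log2 fold change was 0.38 (SE 0.57, 95% interval -0.75 to 1.51, FDR 0.9999), and 11 of 16 mCRS libraries lay above the CTR median.

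Tsc22d3 (ENSMUSG00000031431, X chromosome from 140539528 to 140600659), also called Gilz, encodes a leucine zipper protein that carries much of the anti-inflammatory action of glucocorticoids. In the PFC it was at 19.6 to 190 CPM in CTR libraries, with a median of 65.9, and at 3.49 to 136 CPM in mCRS libraries, with a median of 66.0. In the NAc it was at 12.3 to 130 CPM in CTR libraries, with a median of 53.6, and at 2.32 to 142 CPM in mCRS libraries, with a median of 74.2. The PFC medians were nearly equal, 4 PFC mCRS libraries lay below the lowest CTR library, and 12 of 16 NAc mCRS libraries lay above the NAc CTR median. The log2 fold change was -0.15 in the PFC (SE 0.41, 95% interval -0.98 to 0.68, FDR 0.9997) and 0.26 in the NAc (SE 0.36, 95% interval -0.46 to 0.98, FDR 0.9999).

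Sgk1 (ENSMUSG00000019970, chromosome 10 from 21882184 to 21999903) encodes a kinase that is induced by both receptors and acts on ion channels and transporters. In the PFC CTR libraries ran from 0 to 131 CPM, with a median of 31.5, and mCRS libraries from 0.588 to 230 CPM, with a median of 39.6. In the NAc CTR libraries ran from 0.663 to 117 CPM, with a median of 46.0, and mCRS libraries from 1.64 to 149 CPM, with a median of 51.9. The mCRS medians were the higher ones in both regions, but only 2 libraries of each mCRS group lay above the highest CTR library of their region. The change on the log2 scale was 0.68 in the PFC (SE 0.55, 95% interval -0.43 to 1.79, FDR 0.9997) and 0.28 in the NAc (SE 0.44, 95% interval -0.59 to 1.15, FDR 0.9999).

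Ddit4 (ENSMUSG00000020108, chromosome 10 from 59949669 to 59951834), also called Redd1, encodes a small stress-induced protein that holds back the growth kinase complex mTORC1 through the Tsc1 and Tsc2 proteins. PFC CTR libraries held 0.546 to 47.4 CPM, with a median of 3.17. PFC mCRS libraries held 0 to 113 CPM, with a median of 44.1. Of the 15 mCRS libraries 14 lay above the CTR median and 6 above the highest CTR library, while 1 mCRS library, number 9, had no count, so the groups overlapped. mCRS over CTR gave a log2 fold change of 2.01 (SE 0.73, 95% interval 0.55 to 3.47), with an unadjusted p of 0.00806 and an FDR of 0.958, and the gene was therefore not called. In log2 CPM the mean was 2.66 ± 1.71 (SD, n = 15) in CTR and 4.92 ± 1.83 (SD, n = 15) in mCRS libraries, and a two-sided permutation test with 100000 resamples gave an unadjusted p of 0.00194.

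The PFC difference in Ddit4 was also estimated in subsets of the libraries. It was 1.32 on the log2 scale among libraries numbered 1 to 8 (unadjusted p = 0.182 in edgeR) and 2.95 among those numbered 9 and above (unadjusted p = 0.0196 in edgeR). Each set held fewer libraries than the whole, and the difference between the sets was not tested. Leaving out each PFC library in turn gave values from 1.85 to 2.38 and unadjusted edgeR p values from 0.00284 to 0.0172. With all 62 libraries in one fit, in which the 4 groups share one estimate of the spread, the fold change was again 2.01. There the unadjusted p was 0.000824 in edgeR and the FDR 0.243, so the gene was not called. Adjusted for the share of genes with any count, it was 2.14 (unadjusted p = 0.0153 in edgeR). In the NAc the gene was at 0.663 to 127 CPM in CTR libraries, with a median of 49.3, and at 2.83 to 141 CPM in mCRS libraries, with a median of 49.5. The NAc groups had nearly equal medians, and the log2 fold change was -0.07 (SE 0.44, 95% interval -0.94 to 0.81, FDR 0.9999).

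**Figure D3:**
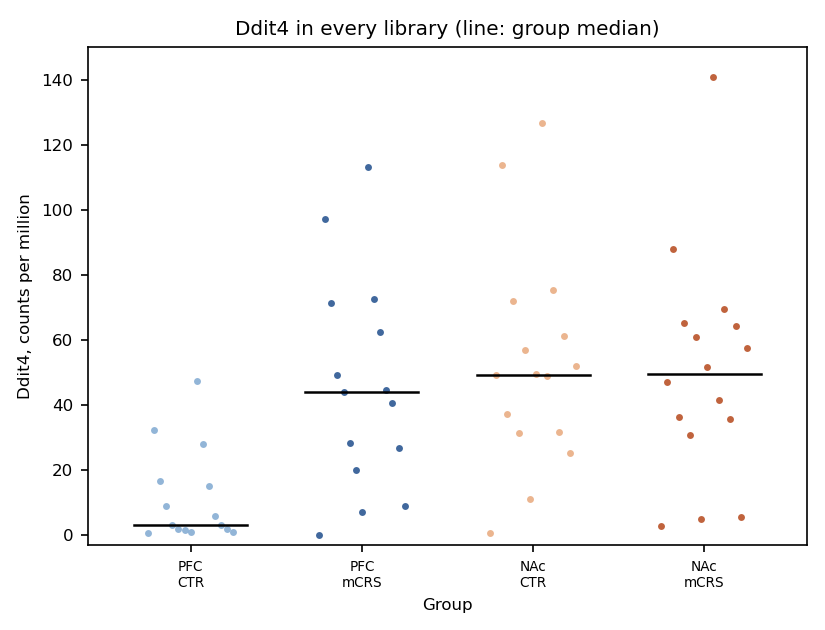
Level of Ddit4 in CPM (vertical axis, linear) in each library of the 4 groups, with a line at the group median. PFC CTR has a median of 3.17 CPM and no library above 47.4 CPM, while the medians of PFC mCRS, NAc CTR and NAc mCRS are 44.1, 49.3 and 49.5 CPM.

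Zbtb16 (ENSMUSG00000066687, chromosome 9 from 48654297 to 48836222), also called Plzf, encodes a zinc finger transcription factor. PFC CTR libraries held 0 to 45.5 CPM, with a median of 6.57, and PFC mCRS libraries 0 to 79.9 CPM, with a median of 6.25. NAc CTR libraries held 0 to 24.2 CPM and NAc mCRS libraries 0 to 22.9 CPM, with medians of 0 in both. PFC mCRS held both the highest values of the region, with 4 libraries above every CTR library, and 6 libraries without a count against 1 in CTR. In the PFC the log2 fold change was 0.71 (SE 0.96, 95% interval -1.21 to 2.63, FDR 0.9997), again opposite in sign to the difference of the mean log2 CPM, -0.14.

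Mt1 (ENSMUSG00000031765, chromosome 8 from 94179082 to 94180327) and Mt2 (ENSMUSG00000031762, chromosome 8 from 94172664 to 94173568) encode metallothioneins, small cysteine-rich proteins that bind zinc and copper and are most abundant in astrocytes. The genes stand 5513 bases apart on the same strand. Mt1 was at 156 to 452 CPM in PFC CTR libraries, with a median of 284, and at 253 to 625 CPM in PFC mCRS libraries, with a median of 360. Here 12 of 15 mCRS libraries lay above the CTR median and 5 of 15 CTR libraries above the mCRS median. The log2 fold change was 0.28 (SE 0.17, 95% interval -0.05 to 0.62), with an unadjusted p of 0.0983 and an FDR of 0.9997, so that Mt1 was not called and a rise above 1.53-fold lay outside the interval. In the NAc Mt1 was at 231 to 468 CPM in CTR libraries, with a median of 354, and at 211 to 564 CPM in mCRS libraries, with a median of 348. The fitted log2 fold change was 0.00 (SE 0.14, 95% interval -0.27 to 0.27, FDR 0.9999), the narrowest interval of the members.

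Mt2 was at 12.8 to 293 CPM in PFC CTR libraries, with a median of 98.0, and at 30.6 to 264 CPM in PFC mCRS libraries, with a median of 128. In the NAc it was at 62.4 to 226 CPM in CTR libraries, with a median of 121, and at 65.8 to 252 CPM in mCRS libraries, with a median of 123. The PFC groups overlapped, with 12 of 15 mCRS libraries above the CTR median, and the NAc groups lay level. The change on the log2 scale was 0.28 in the PFC (SE 0.32, 95% interval -0.35 to 0.92, FDR 0.9997) and 0.02 in the NAc (SE 0.22, 95% interval -0.42 to 0.46, FDR 0.9999). The span of an antisense gene, Gm45774, introns included, covers 432 exonic bases of Mt2, and Gm45774 is not in the table. Where exons of both overlap, their reads could not be told apart if strand was not used. The overlap between exons was not measured. Within groups the log2 CPM of Mt1 and Mt2 had a Pearson r of 0.50 for CTR and 0.44 for mCRS in the PFC, and of 0.24 and -0.07 in the NAc (Spearman's rho 0.19, 0.39, 0.34 and -0.16). None of these reached an adjusted permutation p below 0.05 over the 4 groups (adjusted p for r 0.202, 0.202, 0.507 and 0.787, and for rho 0.555, 0.398, 0.398 and 0.555). Without the 2 libraries farthest from the median of Mt1, r was 0.11, 0.36, 0.32 and -0.06, so the PFC CTR value rested on those 2 libraries. Astrocyte marker sums had medians of 3648 CPM (CTR) and 3235 CPM (mCRS) in the PFC and of 3497 and 3433 CPM in the NAc, and the part of astrocyte content in the metallothionein values was not tested.

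Whether the treatment effect differed between the regions was tested as an interaction over all 62 libraries, as the effect in the NAc minus that in the PFC. For this test 0 of the 10 members had an FDR below 0.05, against 0.00907% of 11025 genes, and 1 had an unadjusted p below 0.05, against 3.09%. That member was Ddit4, whose interaction was -2.08 on the log2 scale (SE 0.79, 95% interval -3.64 to -0.52, unadjusted p = 0.00965, FDR 0.99998). The other 9 had interactions between -1.54 for Hsd11b1 and 0.41 for Tsc22d3, with unadjusted p values from 0.203 to 0.948 in edgeR. Of the 10 interactions 8 were below 0, with a median of -0.27 against 0.01 over all genes, and both treatment effects of a gene enter this value. The interaction of Mt1, the most evenly measured member, was -0.27 (SE 0.21, 95% interval -0.69 to 0.15).

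The comparison of the regions within each treatment showed 1 member that was higher in the NAc of CTR mice, Ddit4, and 1 that was lower in the NAc of mCRS mice, Nr3c1. In CTR mice 1 of 10 members was called, Ddit4, against 5.44% of the 11025 genes tested. Its log2 fold change was 2.21 (SE 0.58, 95% interval 1.06 to 3.37, FDR 0.00754), with 15 of 16 NAc libraries above the PFC median, 10 above the highest PFC library, and 0 of 15 PFC libraries above the NAc median. In mCRS mice the same contrast of Ddit4 was 0.13 (SE 0.55, 95% interval -0.96 to 1.23, FDR 0.957). The difference between these values is the interaction given above, which did not pass the test after adjustment, and the CTR value shares its PFC CTR libraries with the comparison of treatments. The order of the Ddit4 medians was PFC CTR, PFC mCRS, NAc CTR and NAc mCRS, and the last 3 of these differed by less than the spread within a group. The Ddit4 call in CTR mice held when each library was left out in turn (FDR 0.00183 to 0.0167), while among libraries numbered 1 to 8 the log2 fold change was 1.78 and the FDR 0.531.

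In mCRS mice 1 of 10 members was called, Nr3c1, against 6.49% of all genes. Its log2 fold change was -0.95 (SE 0.27, 95% interval -1.49 to -0.41, FDR 0.0153), with 15 of 15 PFC libraries above the NAc median, 0 of 16 NAc libraries above the PFC median and 9 PFC libraries above the highest NAc library. In CTR mice the value was similar, -0.79 (SE 0.27, 95% interval -1.33 to -0.25), with an FDR of 0.0713, 11 of 15 PFC libraries above the NAc median and 0 of 16 NAc libraries above the PFC median. With only the PFC and NAc CTR libraries in the fit that FDR was 0.0377, so the CTR call depended on the samples fitted. The mCRS call was lost without PFC mCRS library 1 (FDR 0.0518). It was also lost in each set of libraries alone, at -0.76 and FDR 0.426 for numbers 1 to 8 and at -1.19 and FDR 0.0652 for 9 and above. Summed cortical excitatory neuron markers had medians of 6678 and 5735 CPM in PFC CTR and PFC mCRS against 1417 and 1580 CPM in NAc CTR and NAc mCRS, and summed oligodendrocyte markers 3579 and 3969 CPM against 7084 and 6978 CPM. The part of these cell types in the region differences of the members was not tested.

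**Figure D4:**
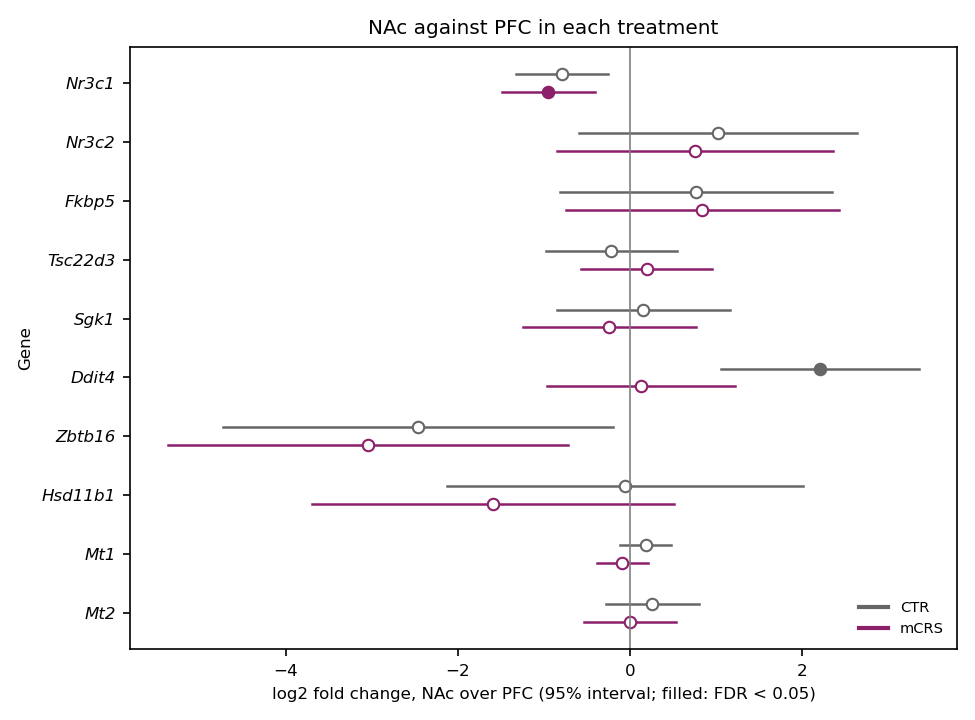
Log2 fold change of NAc over PFC (horizontal axis, with 95% interval) for each gene in CTR and in mCRS mice, with filled circles for an FDR below 0.05. Only Ddit4 in CTR mice, at 2.21, and Nr3c1 in mCRS mice, at -0.95, are filled, and Zbtb16 has the lowest values, -2.47 and -3.05, with wide intervals.

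Among the members that were not called between regions, Zbtb16 had the largest fold changes. It did not pass the filter on low counts among the NAc libraries and entered the region comparison through the PFC, where its level was higher, so its fold changes are given as a description; it was left out by the stricter filter. It was at 0 in 9 of 16 NAc CTR and 11 of 16 NAc mCRS libraries, against 1 of 15 PFC CTR and 6 of 15 PFC mCRS libraries. The log2 fold change was -2.47 in CTR mice (SE 1.14, 95% interval -4.73 to -0.20, FDR 0.297) and -3.05 in mCRS mice (SE 1.17, 95% interval -5.37 to -0.72, FDR 0.118). Without NAc mCRS library 15, which held 39.2% of the Zbtb16 counts of its group, the mCRS value was -3.87 with an FDR of 0.0388, to which the same limit applies. Two-sided permutation tests of its log2 CPM gave unadjusted p values of 0.00361 in CTR and 0.0221 in mCRS mice, which for the same reason are no independent result. Permutation tests were run for 10 members in 4 comparisons. Fkbp5 had log2 fold changes of 0.77 in CTR (95% interval -0.81 to 2.35, FDR 0.841) and 0.84 in mCRS mice (95% interval -0.74 to 2.43, FDR 0.716). In mCRS mice all 16 NAc libraries lay above the PFC median of Fkbp5, and the permutation test of log2 CPM, which gives less weight to the few high PFC libraries, had an unadjusted p of 0.00529. For Mt1 the region difference was 0.18 in CTR (95% interval -0.11 to 0.48, FDR 0.738) and -0.09 in mCRS mice (95% interval -0.38 to 0.21, FDR 0.877), and for Mt2 0.26 and 0.00 (FDR 0.842 and 0.998). For Tsc22d3 the interval was -0.97 to 0.55 in CTR and -0.57 to 0.96 in mCRS mice. For Sgk1 it was -0.85 to 1.16 in CTR and -1.25 to 0.76 in mCRS mice, so 0 lay inside all of these. The intervals of Nr3c2 and Hsd11b1 were wider and also held 0. Hsd11b1, like Zbtb16, did not pass the filter on low counts among the NAc libraries and entered the region comparison through the PFC. Its values are therefore also a description and no independent result. In mCRS mice 14 of 15 PFC libraries lay above its NAc median, and its mean log2 CPM differed by -1.86 with an unadjusted permutation p of 0.0329.

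The neighbors of these genes in the hormone pathway were taken as 7 lists of gene names. Receptor complex and coregulator genes, the chaperones that hold the receptor ready to bind hormone and the proteins it recruits to DNA, had 0 of 19 tested genes called in the PFC and 0 of 20 in the NAc after mCRS. Their genes of smallest p were the corepressor Ncor1 (log2 fold change -0.48, unadjusted p = 0.0213 in edgeR) and the chromatin remodeler Smarca4 (-0.66, p = 0.0217) in the PFC, and the mediator subunit Med1 (-1.09, p = 0.0283) and the acetyltransferase Crebbp (-0.27, p = 0.253) in the NAc. Among other genes known to be induced by glucocorticoids 24 of 30 were in the table, and 0 of 17 were called in the PFC and 0 of 21 in the NAc. Of these, 11 of 17 PFC values were below 0, with a median of -0.19 where the members had 0.39. The pair of smallest p was Rhob (-0.50, p = 0.0679 in edgeR) and Errfi1 (-1.60, p = 0.0943) in the PFC, and Rhob (0.38, p = 0.116) and Tle3 (1.08, p = 0.138) in the NAc. Rhob, a small GTPase, had an interaction of 0.89 (SE 0.36, unadjusted p = 0.015, FDR 0.99998).

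Of 18 genes for stress hormone signals and steroid supply 9 were in the table, and 0 of 5 tested were called in the PFC and 0 of 7 in the NAc. The peptide Adcyap1 had a log2 fold change of 1.08 in the PFC (unadjusted p = 0.104 in edgeR) and its receptor Adcyap1r1 -0.38 (p = 0.38). In the NAc the corticotropin-releasing hormone receptor Crhr1 had -1.20 (p = 0.199 in edgeR) and Adcyap1r1 0.21 (p = 0.431). Zinc handling genes, which share their metal with the metallothioneins, had 0 of 11 called in the PFC and 0 of 13 in the NAc, with the transporters Slc39a10 (0.40, p = 0.0925 in edgeR) and Slc30a3 (-0.40, p = 0.225) in the PFC and Slc30a3 (2.05, p = 0.029) and Slc30a9 (-0.32, p = 0.168) in the NAc at the smallest p. The partners and targets of Ddit4 in the mTOR pathway had 0 of 13 called in the PFC and 0 of 14 in the NAc. There the ribosomal protein Rps6 (0.78, p = 0.0214 in edgeR) and Tsc1 (-0.94, p = 0.159) had the smallest p in the PFC, and the translation repressor Eif4ebp2 (-0.91, p = 0.0565) and the sestrin Sesn3 (-0.33, p = 0.125) in the NAc.

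In the Sgk1 pathway 0 of 9 tested genes were called in the PFC and 0 of 10 in the NAc. The list held Pdk1 by its symbol, which in mice is a kinase of pyruvate dehydrogenase and not Pdpk1, the kinase that activates Sgk1 and is also listed. Without Pdk1, 8 of 8 PFC values were below 0, led by the ubiquitin ligases Nedd4l (-0.65, p = 0.0447 in edgeR), on which Sgk1 acts, and Nedd4 (-0.24, p = 0.134). In the NAc 6 of 9 were above 0 without Pdk1, and Nedd4 (-0.28, p = 0.0673 in edgeR) and Pdk1 (0.67, p = 0.316) had the smallest p. Immediate early genes, which mark recent neuronal activity, had 0 of 13 called in the PFC and 0 of 10 in the NAc. Egr1 had a log2 fold change of -0.51 (p = 0.038 in edgeR) and Egr3 of 0.71 (p = 0.0402) in the PFC, and Arc of -0.63 (p = 0.286) and Nr4a1 of 0.63 (p = 0.329) in the NAc. For the interaction 0 genes of the 7 lists were called.

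Between the regions several pathway genes were called, where 5.44% of all 11025 genes tested were called in CTR and 6.49% in mCRS mice. The counts of the lists are a description beside these shares. Hsp90aa1, the chaperone that binds the unliganded receptor, was lower in the NAc in CTR (log2 fold change -0.87, SE 0.13, FDR 1.95e-07) and in mCRS mice (-0.91, SE 0.13, FDR 5.61e-08), the only 1 of 20 receptor complex genes called in either. Of the 24 other glucocorticoid-induced genes 0 were called in CTR mice, where Rhob (-0.56, FDR 0.271) and the scaffold protein Nedd9 (1.99, FDR 0.472) had the smallest p, and 1 was higher in the NAc in mCRS mice, Nedd9 (4.98, SE 1.28, FDR 0.0056). Of 9 hormone signal genes, 1 was higher in the NAc of CTR mice, the neuropeptide Avp (6.997, SE 0.92, FDR 5.19e-09), and 3 in mCRS mice, Avp (5.57, FDR 4.54e-07), the peptide Crh (5.43, FDR 0.00271) and Adcyap1r1 (1.13, FDR 0.022). Nedd9, Avp and Crh did not pass the filter on low counts among the PFC libraries and entered the comparison through the NAc, where they were higher, so their calls are no independent result. Adcyap1r1 had an FDR of 0.0569 without the libraries that stood apart, of 0.0598 with only the mCRS libraries fitted and of 0.0746 with a replicate block. Avp is a neuropeptide of the hypothalamus, and the 4 hypothalamic markers in the table, Avp among them, summed to a median of 231 CPM in NAc CTR and 322 CPM in NAc mCRS against 2.99 and 1.298 CPM in PFC CTR and PFC mCRS.

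Of 13 zinc genes 2 were lower in the NAc in both treatments, the synaptic vesicle zinc transporter Slc30a3 (-4.43, FDR 3.14e-07 in CTR and -1.99, FDR 0.0244 in mCRS) and the importer Slc39a10 (-1.27, FDR 0.00717 and -1.55, FDR 0.000537). Of 15 mTOR pathway genes 0 were called in either treatment in the fit of all 62 libraries, with Sesn3 (0.92, FDR 0.074) and Ddit4l (-1.88, FDR 0.226) at the smallest p in CTR and Sesn3 (0.87, FDR 0.0877) and Rptor (1.54, FDR 0.158) in mCRS mice. Sesn3 was on the edge of a call. In CTR mice it was called with RLE normalization (FDR 0.0424), with DESeq2 (FDR 0.0429), with only the CTR libraries (FDR 0.017), with a replicate block (FDR 0.0322) and without the libraries that stood apart (0.99, FDR 0.0444). In mCRS mice it was called with a replicate block (1.07, FDR 0.0347). Leaving out PFC CTR library 5 (FDR 0.0482) or NAc CTR library 7 (FDR 0.0435) also gave a call in CTR mice, and leaving out PFC mCRS library 5 (FDR 0.0296) in mCRS mice. Of 10 genes of the Sgk1 list, Pdk1 included, Ndrg2, a Sgk1 substrate of astrocytes, was higher in the NAc in both treatments (0.60, FDR 0.00231 and 0.88, FDR 2.1e-06), and Nedd4l in mCRS mice (0.91, FDR 0.0204, but 0.0767 with only the mCRS libraries fitted). Of 15 immediate early genes Egr1 was lower in the NAc of CTR mice (-1.03, FDR 0.00152) and Egr3 in mCRS mice (-1.50, FDR 0.00936). Of the 15 values, 13 in CTR and 12 in mCRS mice were below 0. Only 10 of the 15 had enough counts to be tested among the NAc libraries alone, against 13 among the PFC libraries. A gene that entered only through the PFC tends to be higher there, so these 2 counts are a description and no independent result. Several of the calls between regions were lost in 1 set of libraries alone. Among numbers 1 to 8 the FDR was 0.296 for Egr3, 0.393 for Slc30a3 in mCRS mice, 0.288 for Crh, 0.127 and 0.105 for Slc39a10, 0.394 and 0.0907 for Ndrg2 in CTR and mCRS mice, 0.156 for Nedd4l and 0.620 for Adcyap1r1. Among 9 and above it was 0.157 for Egr1, 0.0891 for Egr3, 0.117 for Slc30a3 in mCRS mice, 0.133 for Slc39a10 in CTR mice, 0.461 for Nedd4l and 0.0924 for Adcyap1r1. With 1 library left out, Nedd4l had an FDR of 0.065 without NAc mCRS library 12 and Adcyap1r1 of 0.0555 without NAc mCRS library 10.

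Over all 62 libraries, after the 4 group means were removed, the genes whose log2 CPM moved most like a member's are given as a description, with Pearson's r over libraries that share a pool and differ in depth. For Nr3c1 they were Adora1 (r = 0.55), Crebbp (0.54) and Xpo1 (0.53). For Ddit4 they were Hrh3 (0.56), Mrpl40 (0.56) and Mapre2 (0.53). For Fkbp5 they were Rab31 (0.52), Mrpl45 (0.45) and Slc4a3 (0.45). For Tsc22d3 they were Pcnx2 (0.59), Bcl7b (0.57) and Fam155a (0.55), and for Sgk1 Dcaf5 (0.49), Tmem64 (0.46) and Kbtbd4 (0.46). For Nr3c2 they were Emc4 (0.53), Diaph1 (0.52) and Ccdc6 (0.52), and for Zbtb16 Sat1 (0.47), Rabgef1 (0.46) and Cdc25b (0.44). For Mt1 they were Fxyd5 (0.53), Ptch1 (0.45) and Ptges3 (0.45), and for Mt2 S1pr1 (0.49), Efnb3 (0.45) and Evi2a (0.45). None of these nearest genes was another member. Among the members themselves the 45 pairs had r from -0.20 to 0.34, and 0 reached an adjusted permutation p below 0.05 for r or for rho.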

How the data were processed

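The authors made 3′ libraries by BRB-seq, aligned the reads with STAR to mm10 and counted them per gene with HTSeq (version 0.9.1 per the processing notes). The deposited table holds whole-number counts, not normalized, of 11121 genes in 62 libraries. Per the study's methods, 2 PFC samples had been removed for sequencing quality, and use of molecular identifiers is not given in the sources used here. Groups followed the labels. PFC and NAc came from the same cohort, and as the labels do not say which libraries share a mouse, libraries were taken as independent and p-values measure the spread between them.

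Counts were analyzed in R 4.3.3 with edgeR 4.0.16 (filterByExpr, TMM, quasi-likelihood test, Benjamini-Hochberg adjustment over all genes tested). mCRS was compared with CTR among the libraries of each region, and the regions and the interaction in one fit of the 4 groups. Log2 CPM used a prior count of 2. DESeq2 1.42.0, other filters and scalings, covariates, a replicate block and left-out libraries were alternatives. The code was tested on simulated data, and no pair of libraries held identical values. The members and lists were chosen with earlier results of these data known. All members were named, with the called genes of each list or the pair of smallest p. Positions are from GENCODE on GRCm38 and promoter windows from RefSeq on GRCm38.p6. Of the 70-base windows in the last 600 bases of the members' transcripts, only 8 of Fkbp5 also occurred in other genes. The genes most like Hsd11b1 are not reported here.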

Additional observations from a re-analysis of the deposited data

How the results depend on the processing

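The count of members called was 0 for mCRS against CTR in both regions and for the interaction under every alternative run, but DESeq2 could not call Ddit4 in the PFC because it gave no adjusted p. For the NAc against the PFC it was 1 in each treatment, but 0 in CTR mice among libraries numbered 1 to 8, 2 with only the CTR libraries fitted and 1 to 2 with each library left out. In mCRS mice it was 0 among numbers 1 to 8, 0 among 9 and above, and 0 to 2 with each library left out (0 without PFC mCRS 1, 2 without NAc mCRS 15). The removal of NAc CTR 7 and NAc mCRS 10, the split by number of the region comparisons and the interaction, and the permutation tests between regions were chosen after seeing the data. The cause of these changes was not tested.

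Same-numbered libraries did not deviate together (correlations -0.03 to 0.05 over the pairs of groups, 0 over 0.1). These correlations cannot show whether any of them came from the same mouse. The replicate block left the counts of members called at 0, 0, 0, 1 and 1, gave Ddit4 in the PFC 2.75 (FDR 0.961), and turned mCRS against CTR of Fkbp5 to -1.04 and Zbtb16 to -0.61 in the PFC, and of Nr3c1 to -0.16, Mt1 to -0.011 and Mt2 to -0.0085 in the NAc. It turned the interactions of Nr3c2 to 0.58 and Zbtb16 to 0.26, and the mCRS region values of Sgk1 to 0.23 and Mt2 to -0.088.

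No value that turned had been called. In the PFC, mCRS against CTR of Fkbp5 turned to -0.13 with library size as a covariate, -0.19 in numbers 1 to 8 and -0.48 by mean log2 CPM, Zbtb16 to -0.14 by mean log2 CPM and Slc30a3 to 0.14 in 9 and above. In the NAc, numbers 1 to 8 gave Fkbp5 -0.31, Mt2 -0.0053, Adcyap1r1 -0.16 and Arc 0.016, and 9 and above gave Sgk1 -0.13, Mt1 -0.077, Sesn3 0.11 and Nr4a1 -0.27. Mean log2 CPM gave Nr3c1 -0.21, Mt1 -0.0061 and Mt2 -0.0068, and Nr3c2 was -0.044 without the libraries that stood apart. For interactions, numbers 1 to 8 gave Fkbp5 -0.10 and Sgk1 0.24, and 9 and above Zbtb16 0.75 and Akt1 -0.21. Between regions in CTR mice, Hsd11b1 was 0.043 with RLE, 0.044 with DESeq2, 0.020 without the libraries that stood apart and 0.26 in 9 and above, Sgk1 -0.29 in 1 to 8 and Mt2 -0.11 in 9 and above. In mCRS mice, Mt2 was -0.025 with the stricter filter, -0.025 with only the mCRS libraries and -0.21 in 9 and above, Mt1 0.14 in 1 to 8, Ddit4 -0.13 in 9 and above and Sgk1 0.025 by mean log2 CPM.

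With each library left out, mCRS against CTR ran from -0.077 to 0.63 for Fkbp5 and -0.27 to 0.024 for Tsc22d3 in the PFC. In the NAc it ran from -0.033 to 0.13 for Nr3c1, -0.038 to 0.47 for Nr3c2, -0.25 to 0.083 for Ddit4, -0.044 to 0.048 for Mt1 and -0.057 to 0.087 for Mt2. Interactions ran from -0.54 to 0.097 for Nr3c2, -0.23 to 0.48 for Fkbp5 and -1.39 to 0.49 for Zbtb16. Region values ran from -0.65 to 0.42 for Hsd11b1 in CTR, and in mCRS mice from -0.050 to 0.30 for Ddit4 and -0.087 to 0.11 for Mt2. The median log2 fold change of all genes between regions was 0.04 and 0.06 with TMM but 0.11 and 0.12 with RLE or DESeq2, and calls higher and lower in the NAc of CTR mice were 208 and 392 with TMM, 241 and 313 with RLE and 356 and 400 with DESeq2. DESeq2 gave Ddit4 in the PFC no adjusted p. Wide intervals at few counts limit Zbtb16, Hsd11b1, Nr3c2 and Fkbp5 most.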
